A study of Mus musculus with 8 samples.

Results

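The genes described here make cholesterol and fatty acids, or control and move sterols, and were measured in mouse acute myeloid leukaemia (AML) cells on 8 Affymetrix expression arrays. The list holds 36 genes in 3 groups: 18 enzymes of sterol synthesis, 8 genes of sterol control and transport, and 10 genes of fatty acid synthesis. A gene was taken as measured when the platform annotation gave a probe set its symbol and no other, and the probe set with the highest mean over the 8 arrays stood for it. This found 30 of the 36 among 17097 measured genes in all: 16 enzymes, 6 control and transport genes and 8 fatty acid genes. Acat2, Pmvk, Srebf1, Abca1, Scd2 and Acsl1 had no such probe set in the annotation used and are not analysed here.

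The 4 arrays labelled Trib1 hi come from an AML cell line said to express Hoxa9 and Trib1, and the 4 labelled Trib1 null from a line said to express Hoxa9 alone. Both trace to leukaemia of mice with a homozygous Trib1 deletion, and all cells grew in IMDM medium that held 5 ng/ml of the cytokine IL-3 and serum at 10%. Hoxa9 is a homeobox transcription factor of blood progenitors that drives leukaemia, and Trib1 is a pseudokinase that brings about degradation of C/EBP alpha. The labels name neither the promoters that drive the introduced genes nor the number of lines or clones, and leave unsaid whether each array had a culture of its own, so p-values here reflect array-to-array spread that may be technical.

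Cells make cholesterol from acetyl-CoA through mevalonate, the isoprenoid diphosphates, squalene and lanosterol. The transcription factor SREBP2, encoded by Srebf2, switches on nearly every enzyme of this route when membranes run short of sterol: SCAP carries it to the Golgi for cleavage, and INSIG proteins hold SCAP back when sterol is plentiful. Fatty acids are built from the same acetyl-CoA by ATP citrate lyase, acetyl-CoA carboxylase and fatty acid synthase, and are then lengthened and desaturated by the ELOVL, SCD and FADS enzymes, with SREBP1 as the main regulator of that family.

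Whether the members share promoter letters was looked at in RefSeq windows of the 250 bases before each gene's start (mouse build GRCm38.p6), on both strands, for 3 motifs: CCAAT, bound by NF-Y, a partner of SREBP, CACGTG, an E-box, and TCACNCCAC, a form of the sterol regulatory element. Of the 18 sterol enzymes on the list, 15 had a window and 14 of those (93.3%) held CCAAT, against 10133 of all 27025 genes in the table (37.5%). CCAAT stood in 4 of 6 control and transport genes (66.7%) and in 3 of 7 fatty acid genes (42.9%). CACGTG was found in 3 of 15, 3 of 6 and 1 of 7 genes of these groups and in 6.86% of all genes. TCACNCCAC was found in 1 of 15 (Hmgcs1), 0 of 6 and 1 of 7 (Acsl1), and in 1.22% of all genes. A gene with several starts counted once if any of its windows held the motif. A match is a description of letters, and a window without a match shows only that these letters are not in it. The windows below belong to Mvd, Tm7sf2, Nsdhl and Insig1, all called lower for the label Trib1 hi, and to Fasn, which was not called. They are written 5′ to 3′ in the gene's direction, with capitals marking CCAAT or its reverse complement ATTGG and, in Insig1 alone, CACGTG. In Fasn a CCAAT and an ATTGG share letters.
Mvd, chr8:122443423-122443672, minus strand: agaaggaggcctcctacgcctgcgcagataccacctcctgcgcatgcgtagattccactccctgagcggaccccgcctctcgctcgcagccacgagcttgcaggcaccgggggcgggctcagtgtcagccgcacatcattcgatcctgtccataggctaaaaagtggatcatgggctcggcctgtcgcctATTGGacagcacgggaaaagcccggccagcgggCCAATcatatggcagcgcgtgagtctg
Tm7sf2, chr19:6067851-6068100, minus strand: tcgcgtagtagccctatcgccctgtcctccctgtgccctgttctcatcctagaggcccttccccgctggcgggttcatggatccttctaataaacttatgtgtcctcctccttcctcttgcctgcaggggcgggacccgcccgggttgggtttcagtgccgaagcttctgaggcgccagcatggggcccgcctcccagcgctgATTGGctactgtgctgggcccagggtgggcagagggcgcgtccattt
Nsdhl, chrX:72918271-72918520, plus strand: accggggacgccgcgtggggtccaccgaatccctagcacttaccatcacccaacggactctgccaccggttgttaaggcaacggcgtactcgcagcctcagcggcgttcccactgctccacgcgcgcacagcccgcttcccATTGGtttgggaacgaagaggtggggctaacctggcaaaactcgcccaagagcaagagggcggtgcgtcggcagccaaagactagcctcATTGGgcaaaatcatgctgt
Insig1, chr5:28071162-28071411, plus strand: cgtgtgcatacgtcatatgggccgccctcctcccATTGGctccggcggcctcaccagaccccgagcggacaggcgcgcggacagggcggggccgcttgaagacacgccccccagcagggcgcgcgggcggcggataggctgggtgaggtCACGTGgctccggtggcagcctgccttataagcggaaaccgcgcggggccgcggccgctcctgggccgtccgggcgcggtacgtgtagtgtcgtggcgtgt
Fasn, chr11:120824548-120824797, minus strand: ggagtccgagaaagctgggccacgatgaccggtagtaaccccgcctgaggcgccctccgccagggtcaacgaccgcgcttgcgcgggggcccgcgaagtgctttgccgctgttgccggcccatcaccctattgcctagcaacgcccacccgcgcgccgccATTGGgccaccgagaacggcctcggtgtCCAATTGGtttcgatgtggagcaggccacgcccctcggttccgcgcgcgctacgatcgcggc

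Signals are the deposited MAS5 intensities, which are linear and scaled per array. Differences are limma fits of log2(intensity + 2.71) for the arrays labelled Trib1 hi minus those labelled Trib1 null, and a gene was called when its Benjamini-Hochberg adjusted p over 12250 tested genes was below 0.05. Folds are ratios of geometric means, taken after raising signals below 500 to 500, so a fold against a partly dimmer group is a lower bound, written "at least". All 30 members passed the filter on low values. The arrays differed at the bottom of the scale: median intensities ran from 4.09 to 68.3 in the arrays labelled Trib1 hi, with the highest in replicate 3, and from 3.71 to 9.56 in those labelled Trib1 null, while 90th percentiles lay between 1808 and 1985 on all 8. The background control probe set read 11.4 to 15.1 in 3 arrays labelled Trib1 hi and 379 in replicate 3, against 149 to 335 in the group labelled Trib1 null. The added control transcript dap was lower in the arrays labelled Trib1 hi, by -0.50 to -0.68 on the log2 scale for its 4 probe sets above 500 on all arrays and by -0.84 and -1.26 for its 2 dimmer ones, whereas the 8 probe sets of the controls bioD and cre differed by 0.01 to 0.16. No other added control transcripts were examined. Whether the dap difference plays a part in the results was not tested.

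Trib1 itself read 7.13, 7.13, 122 and 5.92 in the arrays labelled Trib1 hi, against 304, 223, 212 and 206 in those labelled Trib1 null, all below 500 and opposite to the labels. No source used here places its probe set relative to the deleted or introduced sequence. Hoxa9, given to both groups by the labels, averaged 107 ± 189 and 1024 ± 43.5 (SD, n = 4 each) in the arrays labelled Trib1 hi and Trib1 null. Its single values for Trib1 hi were 14.3, 14.3, 391 and 10, with the 391 in replicate 3. Hoxa9 was called at least 2.05-fold lower (limma adjusted p = 5.15e-06). Of 11 myeloid markers, 8 read 500 or more on all arrays, with sums of 86501 to 123849 in arrays labelled Trib1 hi and 105871 to 127294 in those labelled Trib1 null. Single markers differed between the groups: 2 of the 11 rose, 4 fell and 5 were not called. Elane, a granule protease of promyelocytes, averaged 4452 ± 653 for Trib1 hi and 802 ± 170 for Trib1 null (5.58-fold higher), and Cebpa, a myeloid transcription factor, 7291 ± 1285 for Trib1 hi and 4002 ± 109 for Trib1 null (1.8-fold higher). The granule proteases Ctsg (1.04-fold lower) and Prtn3 (1.12-fold higher) were brighter than Elane and not called (limma adjusted p = 0.896 and 0.512). Itgam, an integrin of mature myeloid cells, averaged 1660 ± 88.9 for Trib1 hi and 5122 ± 325 for Trib1 null (3.08-fold lower), and Lyz2, Csf3r and Spi1 were lower by 1.47-fold, at least 1.65-fold and at least 1.61-fold. The called markers thus differed, in both directions, between the same groups of arrays as the sterol genes described here. Their part in the sterol differences was not tested. All 9 lymphoid, 5 erythroid and 5 liver or fat markers were below 500 on all arrays. Of 8 stromal markers, 7 were below 500 and the other was Pecam1, which blood cells also carry and which was 1.39-fold lower.

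The sterol synthesis enzymes were lower where the label was Trib1 hi, from the mevalonate steps to the last reductase of the route. Of 16 measured, 12 fell, 0 rose and 4 were not called, against 19.7% of all tested genes called lower and 11.1% called higher. Fewer cells making an enzyme and less of its RNA per cell cannot be told apart here. The median log2 difference of the 16 was -0.60, against 0.04 over all tested genes, and with signals below 500 raised to 500 it was -0.46 over the 13 that could be tested, against -0.01, and 11 of these were called lower, against 29.7% of all genes tested that way. Of the 9 enzymes at 500 or more on all 8 arrays, 7 fell, against 25.8% of the 4465 genes that bright (25.9% were higher). The groups did not overlap, with the arrays labelled Trib1 hi lower, for 11 of 16 enzymes, against 15.8% of all tested genes. Without the variance trend 6 enzymes were called lower, against 10.4% of all genes, and with the mean of each gene's probe sets 8 were, against 11.4%.

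**Figure D1:**
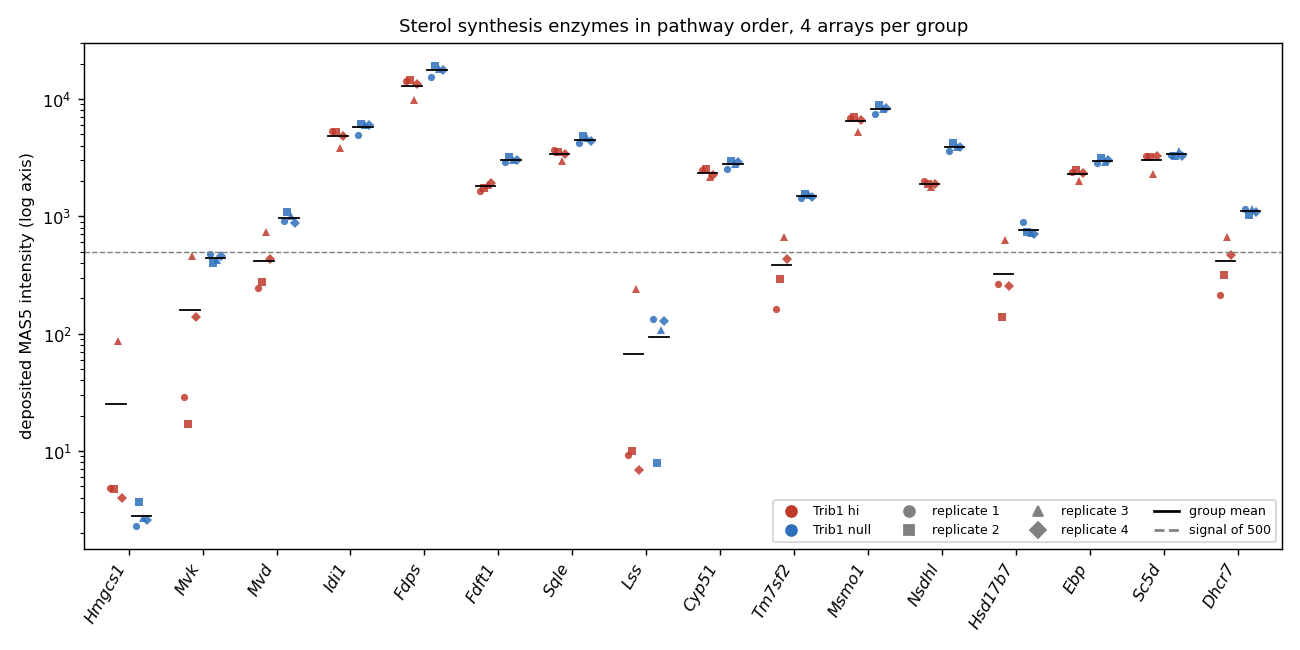
Deposited MAS5 intensity (log axis) of the 16 measured sterol synthesis enzymes in pathway order, with arrays labelled Trib1 hi in red to the left of arrays labelled Trib1 null in blue, marker shapes for replicates, black bars for group means and a dashed line at 500. Nsdhl and Tm7sf2 show wide gaps between groups, and replicate 3 of Trib1 hi sits highest among its group for dim genes and mostly lowest for bright ones.

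In the mevalonate part, Mvd, the decarboxylase that makes isopentenyl diphosphate, read 243, 274, 729 and 428 in the arrays labelled Trib1 hi, against 903, 1082, 996 and 869 in those labelled Trib1 null. The groups did not overlap, and Mvd was at least 1.75-fold lower (log2 difference -1.33 ± 0.24 SE, adjusted p = 3.94e-05), close to the at least 1.73-fold of a dap probe set of like brightness (means 610 for Trib1 hi and 1073 for Trib1 null). Mvk, the kinase that phosphorylates mevalonate, read 28.5, 16.9, 458 and 137 in the arrays labelled Trib1 hi, against 475, 397, 425 and 459 in those labelled Trib1 null. All 8 Mvk values lie below 500 and the groups overlapped, so no fold is given. Its call (adjusted p = 0.00913) was lost without the variance trend (0.131), without the filter (0.0619) and with the mean of its probe sets (0.185). Hmgcs1, the synthase that makes HMG-CoA, was represented by a probe set near the bottom of the scale (25.2 ± 41.4 and 2.79 ± 0.578 in the arrays labelled Trib1 hi and Trib1 null), and was not called (adjusted p = 0.26), but passed as higher without Trib1 hi 3 (0.0374) or after quantile normalization (0.00167).

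Of the 5 isoprenoid and squalene enzymes, Fdft1, Sqle and Fdps fell, while Idi1 and Lss were not called. Fdft1, squalene synthase, read 1652, 1756, 1863 and 1932 in the arrays labelled Trib1 hi, against 2883, 3205, 2988 and 3037 in those labelled Trib1 null, a 1.68-fold decrease (log2 difference -0.75 ± 0.09 SE, adjusted p = 7.06e-08). Sqle, squalene epoxidase, a rate-controlling oxygen-dependent step, read 3661, 3552, 2964 and 3404 in the arrays labelled Trib1 hi, against 4178, 4838, 4607 and 4369 in those labelled Trib1 null. No array of one group reached the range of the other for either enzyme, and Sqle was 1.33-fold lower (adjusted p = 0.000843). Fdps, which joins isoprene units into farnesyl diphosphate, read 14205, 14370, 9795 and 13302 in the arrays labelled Trib1 hi, against 15492, 19185, 17997 and 17608 in those labelled Trib1 null. The Fdps groups did not overlap, and it was 1.37-fold lower (adjusted p = 0.0113, 0.0961 without the variance trend). Idi1, the isomerase of isopentenyl diphosphate, read 5350, 5271, 3797 and 4835 in the arrays labelled Trib1 hi, against 4888, 6063, 5946 and 6037 in those labelled Trib1 null. The groups overlapped through replicate 1 of Trib1 null, and Idi1 was not called (adjusted p = 0.0669), but passed without that array (0.0194), without Trib1 hi 1 (0.0463) or 2 (0.0452), with equal 90th percentiles (0.0303), a pseudocount of 50 (0.019) or quantile normalization (1.89e-06). Lss, which closes squalene epoxide into lanosterol, read 239 or less on every array and was not called (adjusted p = 0.624).

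Of the 8 measured enzymes that turn lanosterol into cholesterol, 7 fell and Sc5d was not called. Tm7sf2, a sterol reductase acting after the demethylase, read 163, 291, 659 and 428 in the arrays labelled Trib1 hi, against 1418, 1558, 1505 and 1454 in those labelled Trib1 null. The arrays labelled Trib1 null lay close together and far above the others, and Tm7sf2 was at least 2.77-fold lower (log2 difference -2.11 ± 0.24 SE, adjusted p = 1.62e-08). Lbr, which carries the same reductase activity and was on the wider sterol list, was not called (adjusted p = 0.58). Nsdhl, the dehydrogenase that removes carboxyl groups left by methyl oxidation, read 2007, 1900, 1777 and 1886 in the arrays labelled Trib1 hi, against 3599, 4206, 3923 and 3926 in those labelled Trib1 null. All 8 Nsdhl values are well above 500, the groups lay far apart, and it was 2.07-fold lower (log2 difference -1.05 ± 0.09 SE, adjusted p = 4.34e-11), a call kept in all 17 alternatives. Dhcr7, the reductase that finishes cholesterol, read 213, 313, 665 and 468 in the arrays labelled Trib1 hi, against 1144, 1027, 1161 and 1085 in those labelled Trib1 null, at least 2.05-fold lower (adjusted p = 2.23e-06). For Dhcr7, as for Tm7sf2 and Mvd, replicate 3 of Trib1 hi was the highest of its group and the only one over 500, and this array also had the high background control.

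Hsd17b7, the ketoreductase that works with Nsdhl, read 266, 139, 628 and 256 in the arrays labelled Trib1 hi, against 892, 740, 716 and 699 in those labelled Trib1 null. Its groups did not overlap, and it was at least 1.43-fold lower (adjusted p = 0.000303), beside at least 1.31-fold for the dap probe set of like brightness (means 329 for Trib1 hi and 701 for Trib1 null). The call was lost with the mean of its probe sets (0.454) and without the variance trend (0.0604). Msmo1, the methylsterol oxidase, read 6898, 7051, 5242 and 6600 in the arrays labelled Trib1 hi, against 7433, 8882, 8236 and 8386 in those labelled Trib1 null, 1.28-fold lower without overlap (adjusted p = 0.00979, 0.114 without the variance trend), though with the mean of its probe sets, the other of which was near the bottom of the scale, the sign turned (0.14). Ebp, the sterol isomerase, read 2381, 2495, 2015 and 2341 in the arrays labelled Trib1 hi, against 2821, 3135, 2886 and 3031 in those labelled Trib1 null, 1.29-fold lower without overlap (adjusted p = 0.00251, 0.0612 without the variance trend). Cyp51, the lanosterol demethylase, averaged 2352 ± 183 and 2789 ± 201 in the arrays labelled Trib1 hi and Trib1 null, overlapped, and was called narrowly (adjusted p = 0.0455). The sign of Cyp51 turned when its probe sets were averaged (0.21). The Cyp51 call also ended without the filter (0.0843), without the variance trend (0.18), without Trib1 hi 1 (0.0525) or 4 (0.127) and without Trib1 null 2 (0.154), 3 (0.114) or 4 (0.147). Sc5d, the sterol desaturase, read 3250, 3204, 2294 and 3228 in the arrays labelled Trib1 hi, against 3303, 3287, 3563 and 3285 in those labelled Trib1 null. The Sc5d groups lay close to touching, and it was not called (adjusted p = 0.216, and 0.00149 after quantile normalization); averaging its probe sets turned the sign (0.06).

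Among genes of sterol control and transport, 4 of 6 measured fell, 0 rose and 2 were not called, with a median log2 difference of -0.47. All 6 read 500 or more on every array, where 25.8% of genes were called lower and 25.9% higher. Srebf2, which encodes the regulator of the sterol enzymes, read 861, 815, 984 and 829 in the arrays labelled Trib1 hi, against 1583, 1433, 1346 and 1445 in those labelled Trib1 null. The groups were separate, and Srebf2 was 1.67-fold lower (log2 difference -0.73 ± 0.12 SE, adjusted p = 9.07e-06). Insig1, which retains SCAP, read 1099, 1110, 1449 and 1404 in the arrays labelled Trib1 hi. Its values in those labelled Trib1 null were 2016, 2214, 2206 and 2385. Each Insig1 value labelled Trib1 hi lay below all values labelled Trib1 null, a 1.75-fold decrease (log2 difference -0.81 ± 0.11 SE, adjusted p = 3.86e-07). Stard4, a cytosolic sterol carrier, read 2618, 2508, 2272 and 2325 in the arrays labelled Trib1 hi, against 3130, 3532, 3483 and 3327 in those labelled Trib1 null, 1.39-fold lower without overlap (adjusted p = 0.000105).

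Abcg1, which exports cholesterol and is switched on by the sterol sensor LXR, read 3686, 3934, 2484 and 2970 in the arrays labelled Trib1 hi, against 4169, 4677, 4489 and 4592 in those labelled Trib1 null. It was 1.39-fold lower (adjusted p = 0.000866, 0.0976 without the variance trend), so an exporter and the synthesis genes were both lower here. In the GRCm38.p6 gene table Abcg1 lies on chromosome 17, where 44.7% of 636 tested genes were called lower and 2.83% higher. Nsdhl and Ebp lie on the X chromosome, where 21.8% of 362 tested genes were called lower and 7.18% higher. Scap, the SREBP escort, read 1829, 1865, 1835 and 1825 in the arrays labelled Trib1 hi, against 2206, 2039, 2053 and 2065 in those labelled Trib1 null. Although its groups did not overlap, the 1.14-fold difference was not called (adjusted p = 0.148), but passed without Trib1 hi 3 (0.00951), with signals below 500 raised to 500 (0.0158) or after quantile normalization (0.00868). Insig2, a relative of Insig1 with separate regulation, read 735, 687, 843 and 657 in the arrays labelled Trib1 hi, against 593, 570, 555 and 536 in those labelled Trib1 null. This was the reverse order without overlap, a 1.29-fold difference that was not called (adjusted p = 0.119) but passed without Trib1 hi 3 (0.0201), with signals below 500 raised to 500 (0.00378) or after quantile normalization (2.43e-05).

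**Figure D2:**
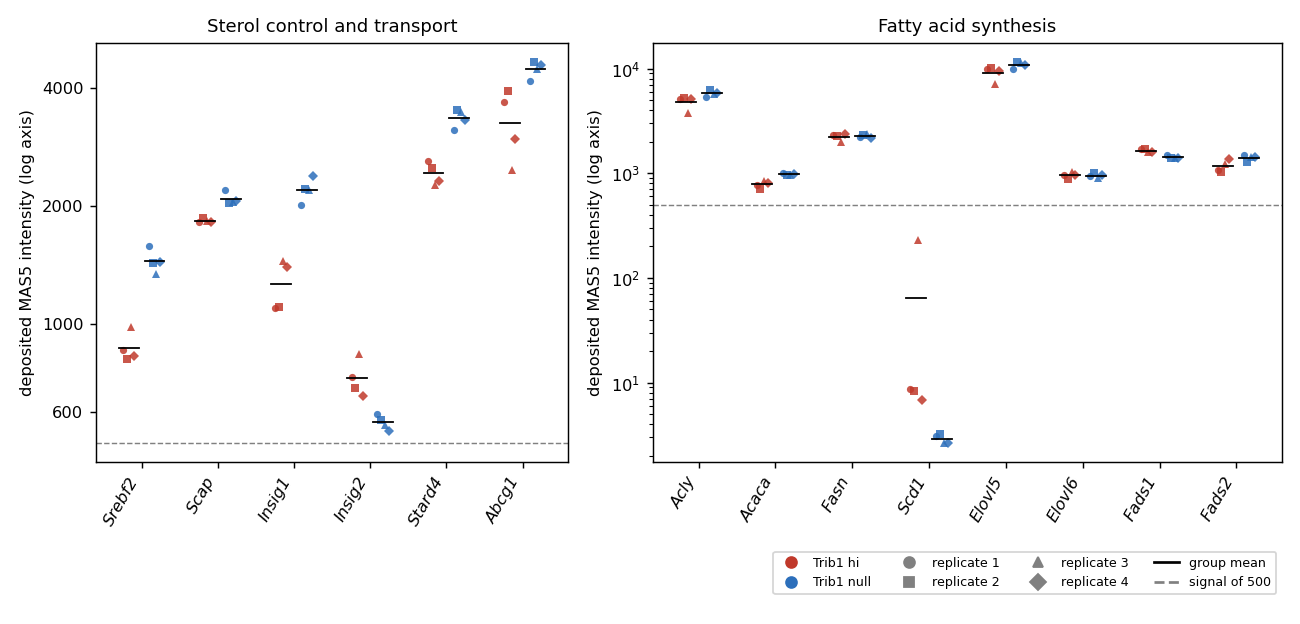
Deposited MAS5 intensity (log axis) of the 6 sterol control and transport genes and the 8 fatty acid genes, with arrays labelled Trib1 hi in red to the left of arrays labelled Trib1 null in blue, marker shapes for replicates and black bars for group means. Srebf2 and Insig1 are separate between groups, while Fasn and Elovl6 overlap.

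The 12 members that were called lower and read 500 or more on all arrays were set beside the 4 dap probe sets of that brightness. Nsdhl, Insig1, Fdft1 and Srebf2, 4 of the 12, had larger decreases than every dap probe set (-0.73 to -1.05, against -0.50 to -0.68), and the other 8 had smaller ones.

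**Figure D3:**
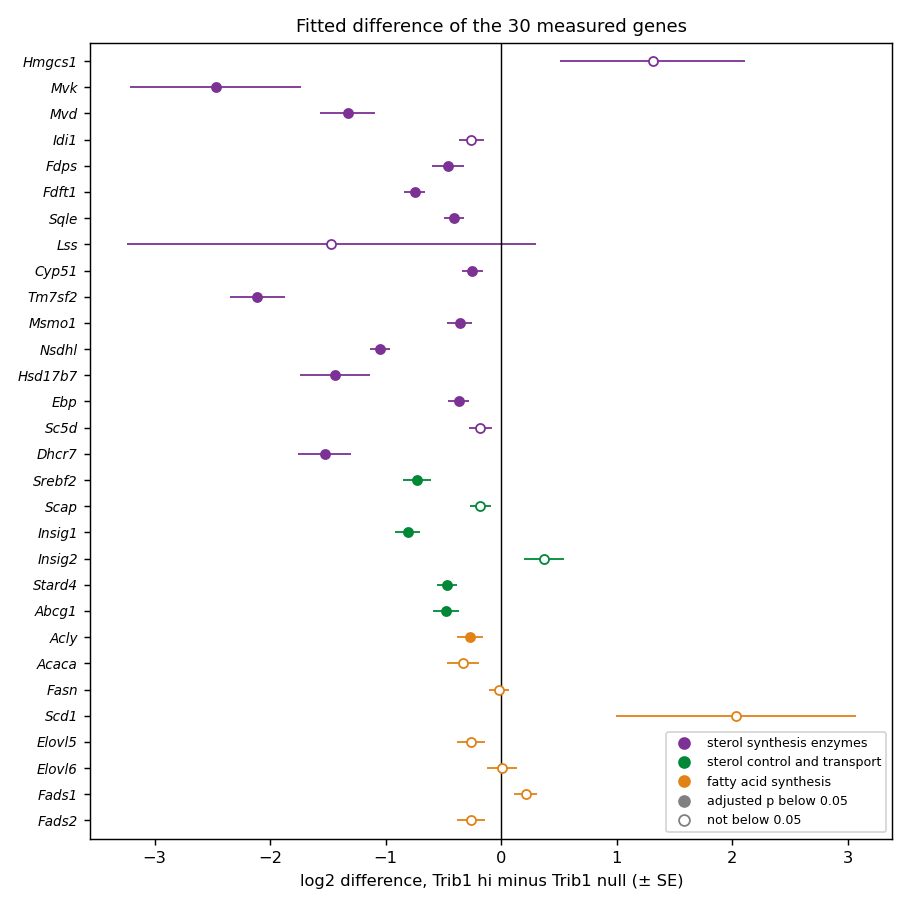
Fitted log2 difference (arrays labelled Trib1 hi minus Trib1 null, ± SE) of the 30 measured genes, coloured by group, filled where the adjusted p was below 0.05. Sterol enzymes lie mostly left of 0. Fatty acid genes lie on both sides of 0, from -0.33 for Acaca to 2.03 for Scd1. The wide bars of Hmgcs1, Mvk, Lss and Scd1 belong to genes below 500 on all arrays.

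Of 8 measured fatty acid synthesis genes, 1 fell, 0 rose and 7 were not called in the main setting. Over all tested genes, 19.7% were called lower and 11.1% higher. The median log2 difference of the 8 was -0.14. At 500 or more on all arrays, 1 of 7 fell, against the 25.8% background at that brightness. The median of these 7 was -0.26, beside -0.37 for the 9 sterol enzymes that bright. After quantile normalization 3 of the 8 were called higher and 2 lower, against 27.3% and 27.5% of all genes tested that way. The difference between the sterol and fatty acid groups was not tested. Fasn, fatty acid synthase, read 2315, 2270, 1988 and 2366 in the arrays labelled Trib1 hi, against 2208, 2329, 2369 and 2175 in those labelled Trib1 null. The groups were interleaved, and the log2 difference of Fasn was -0.02 ± 0.09 SE (adjusted p = 0.904). Acly, ATP citrate lyase, which supplies acetyl-CoA to both routes, read 5132, 5273, 3756 and 5153 in the arrays labelled Trib1 hi, against 5365, 6270, 5654 and 5858 in those labelled Trib1 null. It was the member that fell, 1.21-fold (adjusted p = 0.0479), and the call ended without Trib1 hi 1 (0.0517) or 4 (0.0502), without Trib1 null 2 (0.141), 3 (0.0673) or 4 (0.0877), without the filter (0.137), without the variance trend (0.256) and with signals below 500 raised to 500 (0.072). Acaca, the acetyl-CoA carboxylase that commits carbon to fatty acids, read 771, 706, 847 and 801 in the arrays labelled Trib1 hi, against 1014, 953, 956 and 990 in those labelled Trib1 null. The Acaca groups did not overlap, but the 1.25-fold difference was not called (adjusted p = 0.0699), except without Trib1 hi 3 (0.00262) or with signals below 500 raised to 500 (0.00279), and averaging its probe sets turned the sign (0.14).

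The elongases and desaturases were not called. Elovl5, an elongase of polyunsaturated fatty acids, averaged 9145 ± 1348 and 10897 ± 783 in the arrays labelled Trib1 hi and Trib1 null (adjusted p = 0.0999, 0.0279 with equal 90th percentiles and 1.26e-08, lower, after quantile normalization), and Elovl6, which lengthens palmitate, 955 ± 59.5 and 951 ± 40.9 (adjusted p = 0.985, and 0.0195, higher, after quantile normalization). Fads1 and Fads2 are desaturases of polyunsaturated fatty acids and are neighbours on chromosome 19. Fads1 read 1722, 1707, 1581 and 1578 in the arrays labelled Trib1 hi, against 1490, 1413, 1401 and 1395 in those labelled Trib1 null. Fads2 read 1068, 1039, 1235 and 1373 in the arrays labelled Trib1 hi, against 1487, 1293, 1427 and 1430 in those labelled Trib1 null. Fads1 thus lay 1.16-fold higher without overlap (adjusted p = 0.13) and Fads2 1.2-fold lower with overlap (adjusted p = 0.0878), neither of them called; without Trib1 hi 3 both passed (0.00749 and 0.0487), as they did with signals below 500 raised to 500 (0.0149 and 0.0439), and Fads2 also without Trib1 hi 4 (0.0446) and Fads1 after quantile normalization (0.000422). Scd1, the stearoyl-CoA desaturase, read 8.75, 8.38, 231 and 6.8 in the arrays labelled Trib1 hi, against 3.08, 3.25, 2.68 and 2.68 in those labelled Trib1 null. These values lie near the bottom of the scale, where arrays differ, and no fold is given (adjusted p = 0.156, 0.00151 without Trib1 hi 3 and 5.87e-08 after quantile normalization).

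Other probe sets of the same genes gave readings that the choice of members had not used, though on the same arrays. Of the 30 genes, 18 had 25 further probe sets between them. All 5 that read 500 or more on every array had the direction of the chosen probe set: Idi1 (-0.31 on the log2 scale), Cyp51 (-0.22), Elovl5 (-0.33) and a pair for Stard4 (-0.48 and -0.79). The dimmer Stard4 probe set read 902, 791, 1085 and 871 in the arrays labelled Trib1 hi, against 1546, 1500, 1582 and 1643 in those labelled Trib1 null. Of 9 with a mean of at least 100 but below 500 on some array, 7 had the same direction. The exceptions were Elovl6, at -1.70, and Insig2, for which a probe set nearly as bright as the chosen one read 364, 469, 778 and 467 in the arrays labelled Trib1 hi, against 823, 586, 742 and 727 in those labelled Trib1 null. The direction of Insig2 therefore depends on the probe set. Of 11 with a mean below 100, 4 had the same direction.

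Within a group, the bright sterol enzymes shared an order of arrays that was not particular to them. Over the 9 sterol enzymes at 500 or more on all arrays, replicate 3 of Trib1 hi was the lowest of its group for 8 and replicate 1 of Trib1 null for 8, while replicate 2 of Trib1 null was the highest for 8. The myeloid markers Ptprc, Lyz2, Ctsg, Prtn3 and Fcgr3 had the same order, and Itgam, Cebpa and Elane had part of it. So did the 90th percentiles of the arrays, at 1808 in Trib1 hi 3, 1899 in Trib1 null 1 and 1968 in Trib1 null 2. Among the other members, this order was shared by the brightest control genes, Abcg1 and Stard4, and the brightest fatty acid genes, Elovl5 and Acly. The rest did not share it in full. Trib1 hi 3 was the lowest for 2 and the highest for 3 of the 6 control genes, and the lowest for 3 and the highest for 2 of the 7 bright fatty acid genes. Trib1 hi 3, Trib1 null 1 and Trib1 null 2 were also the arrays whose background control read highest (379 in Trib1 hi 3 and 335 in Trib1 null 1) and, in the group labelled Trib1 null, lowest (149). With both high-background arrays left out, an alternative chosen after seeing the data, 13 of the 16 enzymes were lower and 1 higher, against 31.9% and 22% of all genes.

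On a wider list of sterol genes that are no members, 5 of 23 tested rose, 3 fell and 15 were not called, with a median log2 difference of 0.12. The shares over all tested genes were 11.1% higher and 19.7% lower. Without Trib1 hi 3 the counts were 8 higher and 8 lower (17.2% and 30.8% of all genes), and with the mean of probe sets 2 and 2 (6.28% and 11.4%). Tmem97, the sigma-2 receptor of the endoplasmic reticulum, read 2928, 2855, 2471 and 3003 in the arrays labelled Trib1 hi, against 1485, 1629, 1687 and 1569 in those labelled Trib1 null, 1.76-fold higher (adjusted p = 2.83e-08). Mbtps2, the protease that makes the second cut in SREBP, rose 1.42-fold (2828 ± 267 for Trib1 hi against 1980 ± 45 for Trib1 null, adjusted p = 5.93e-05). Erlin1, a membrane protein that binds the SREBP, SCAP and INSIG complex, rose 1.46-fold (2384 ± 269 for Trib1 hi against 1626 ± 64.9 for Trib1 null, adjusted p = 4.88e-05). With the mean of all probe sets the calls of Mbtps2 (0.0537) and Erlin1 (0.464) were lost. The other 2 that rose were Aup1 (1.35-fold) and Nus1 (1.24-fold), named after their values were seen. Lipa, the lysosomal acid lipase that frees cholesterol from its esters, read 485, 597, 832 and 711 in the arrays labelled Trib1 hi, against 1327, 1368, 1347 and 1381 in those labelled Trib1 null, at least 2.09-fold lower (adjusted p = 5.14e-07). The other decreases, named after their values were seen, were those of Erlin2 (445 ± 214 for Trib1 hi against 741 ± 51.4 for Trib1 null, adjusted p = 0.00783) and the lipoprotein receptor Scarb1 (312 ± 176 for Trib1 hi against 545 ± 118 for Trib1 null, adjusted p = 0.0332), both with overlapping groups. Over 17 alternatives the highest adjusted p was 0.139 for Erlin2, 0.291 for Scarb1 and 0.293 for Nus1.

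**Figure D4:**
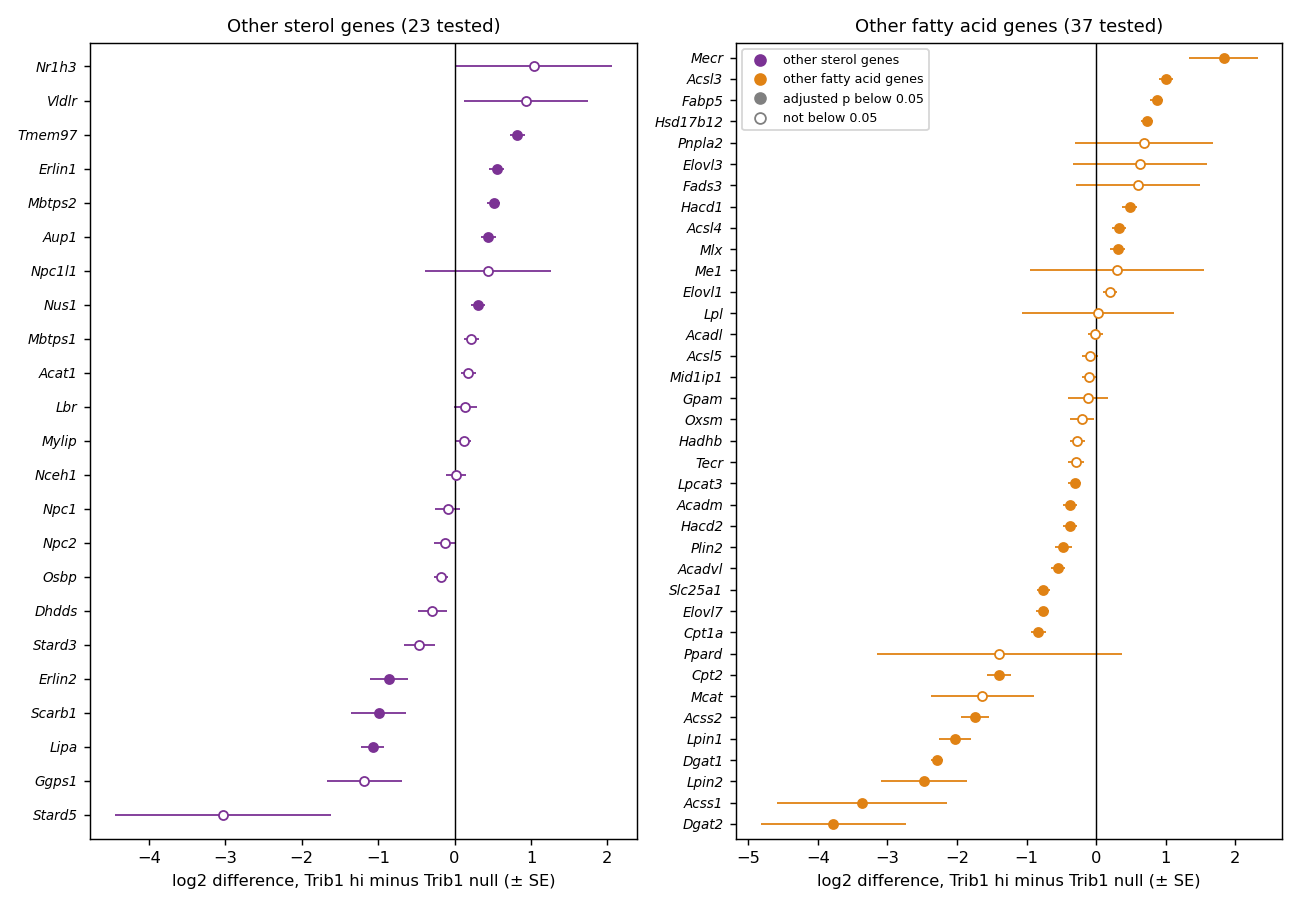
Fitted log2 difference (arrays labelled Trib1 hi minus Trib1 null, ± SE) of 23 other sterol genes and 37 other fatty acid genes, filled where the adjusted p was below 0.05. Tmem97 and Acsl3 lie to the right and Dgat1, with a short bar, far to the left at -2.29.

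Of 37 tested genes on the wider fatty acid list, 7 rose, 15 fell and 15 were not called, with a median log2 difference of -0.27, beside 11.1% higher and 19.7% lower over all tested genes. Dgat1, which makes triglyceride from diacylglycerol, read 1077, 1115, 1191 and 1219 in the arrays labelled Trib1 hi, against 5237, 5799, 5746 and 5703 in those labelled Trib1 null. The groups lay 4.89-fold apart with little spread (log2 difference -2.29 ± 0.09 SE, adjusted p = 1.55e-19), though with the mean of all its probe sets the call was lost (-1.30, 0.115). Lpin1, a phosphatidate phosphatase, read 263, 196, 650 and 455 in the arrays labelled Trib1 hi. Its values in those labelled Trib1 null were 1329, 1298, 1545 and 1641, so it was at least 2.71-fold lower (adjusted p = 1.51e-08). Dgat2 averaged 83.9 ± 142 and 432 ± 95.4 in the arrays labelled Trib1 hi and Trib1 null (adjusted p = 0.00483, 0.633 with signals below 500 raised to 500). Acss2, which makes acetyl-CoA from acetate, fell at least 2.68-fold and the mitochondrial citrate carrier Slc25a1 1.7-fold (adjusted p = 1.04e-08 and 5.3e-08), both named after their values were seen.

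Acsl3, which activates long-chain fatty acids, read 2700, 2773, 2400 and 2779 in the arrays labelled Trib1 hi, against 1337, 1261, 1345 and 1328 in those labelled Trib1 null, 2.02-fold higher without overlap (adjusted p = 3.39e-10, 0.144 with the mean of all its probe sets). Fabp5, a fatty acid binding protein, read 2854, 2806, 2479 and 2864 in the arrays labelled Trib1 hi, against 1506, 1460, 1520 and 1517 in those labelled Trib1 null, 1.83-fold higher (adjusted p = 5.25e-09). Mecr, a reductase of mitochondrial fatty acid synthesis, averaged 459 ± 177 and 128 ± 46.7 in the arrays labelled Trib1 hi and Trib1 null (adjusted p = 0.00389, 0.387 with signals below 500 raised to 500), too dim for a fold.

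Of the members above 500 on all arrays, Nsdhl, Fdft1 and Insig1 were picked for clear gaps on these same arrays. Their small movement across settings is therefore no separate support. Nsdhl ranged from -1.09 to -1.01 over 17 alternatives, Fdft1 from -0.79 to -0.71 and Insig1 from -0.92 to -0.74, each called lower in all 17. Srebf2 was also called in all 17, from -1.66, with the mean of its probe sets, to -0.59, after quantile normalization. Cyp51 and Acly, also above 500 on all arrays, each kept their call in 8 of 17. Quantile normalization gave 14 of 16 sterol enzymes lower and 1 higher, against 27.5% and 27.3% of all genes tested that way.

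**Figure D5:**
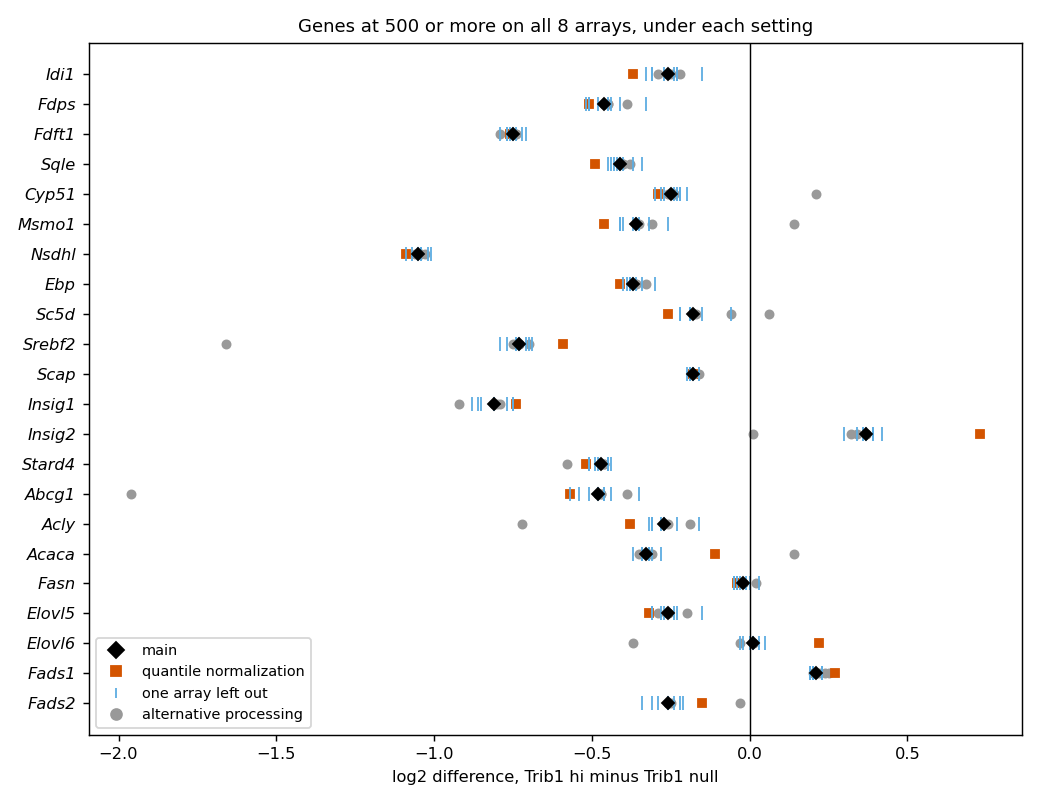
Log2 difference (arrays labelled Trib1 hi minus Trib1 null) of the 22 members at 500 or more on all 8 arrays, under the main setting (black), quantile normalization (orange), each array left out (blue) and the other alternatives (grey). Nsdhl, Fdft1 and Insig1 stay in narrow ranges, and the far grey points belong to the mean of all probe sets.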

How the data were processed

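Total RNA of 8 cell samples was measured on Affymetrix arrays, 4 per label. The authors deposited linear intensities of 45141 probe sets; per the submitters' processing notes they come from MAS5, with no version or settings named. The lowest deposited value is 1. Groups came from sample titles. Of the probe sets, 28898 had exactly 1 gene symbol in the platform annotation, 551 had several, and the rest were unnamed; they gave 17097 genes, each read from its brightest probe set. Computed here: log2(intensity + 2.71, the 25th percentile of all values), a filter at a mean over 3.01 (the 40th percentile of probe sets), which left 12250 genes, and limma 3.58.1 in R 4.3.3 with a variance trend, two-sided, Benjamini-Hochberg adjusted. Every adjusted p comes from limma. The fit was tested on simulated data. SDs are over n = 4 arrays per group, and this number limits precision. No detection calls were used.

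Members, lists, the limit of 500, the test and the alternatives were chosen with earlier results of these data known, so patterns already seen are not independent support. Every member is named; from the wider lists, up to 3 called genes per direction, by size among groups without overlap. Alternatives were quantile normalization, equal 90th percentiles, raising signals to 500, a pseudocount of 50, no filter, the mean of probe sets, no variance trend, a replicate block, and leaving out arrays. RefSeq supplied promoter windows (GRCm38.p6) and chromosomes; the labels name no build.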

Additional observations from a re-analysis of the deposited data

Results flagged for a closer look

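Dixon's test at its 95% level for 4 values was applied to members and to wider-list genes picked by size of change. In 10 of 80 combinations of a gene and a group, 1 array stood apart from the other 3. Chance flags about 1 in 20 of independent normal values. The genes share the same arrays, so the 10 cannot be judged against that rate. Of the 10, 7 were replicate 3 of Trib1 hi. It stood high for dim genes: Hmgcs1 (87.2, others at most 4.87), Lss (239, others at most 9.94), Scd1 (231, others at most 8.75) and Dgat2 (297, others at most 21). It stood low for bright genes: Sc5d (2294, others at least 3204), Acly (3756, others at least 5132) and Fabp5 (2479, others at least 2806). Its median intensity and background control were the highest of its group, as given above. Replicate 1 of Trib1 null stood low for Idi1 (4888, others at least 5946) and high for Scap (2206, others at most 2065), and replicate 3 of Trib1 null high for Sc5d (3563, others at most 3303). The part of array background in these values was not tested.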

How the results depend on the processing

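Among the main counts, sterol enzymes called lower (12) stayed between 11 and 13 when single arrays were left out, and sterol control genes called lower (4) between 4 and 5. Without the variance trend, 6 sterol enzymes, 0 fatty acid genes, 1 other sterol gene, 9 other fatty acid genes and 1274 of all genes were lower, and 4 other fatty acid genes higher. Leaving out single arrays gave 0 to 1 sterol enzymes and 0 to 1 control genes higher, 0 to 2 fatty acid genes higher and 0 to 3 lower, 5 to 8 other sterol genes higher and 1 to 8 lower, 6 to 8 other fatty acid genes higher and 14 to 17 lower, and 1153 to 2103 of all genes higher and 1964 to 3768 lower. Counts over 1.5 times the main one came without Trib1 hi 3 (sterol enzymes 1 higher, control genes 1 higher, fatty acid genes 3 lower and 2 higher, other sterol genes 8 and 8, all genes 3768 lower and 2103 higher). The 1 other sterol gene lower was without Trib1 hi 1; the 0 fatty acid genes lower were without Trib1 hi 1 or Trib1 null 2, 3 or 4. Quantile normalization gave 1 sterol enzyme, 1 control gene, 3 fatty acid genes, 10 other sterol genes and 3341 of all genes higher, and 2 fatty acid and 5 other sterol genes lower. Leaving out both high-background arrays gave 1 sterol enzyme, 1 control gene, 2 fatty acid genes, 10 other sterol genes and 2698 of all genes higher, and 3 fatty acid genes, 8 other sterol genes and 3903 of all genes lower. Raising signals to 500 gave 1 control gene and 1 fatty acid gene higher and 2 fatty acid genes lower. Equal 90th percentiles gave 2 fatty acid genes lower; no filter gave 0, and 1 other sterol gene lower. The mean of probe sets gave 2 other sterol genes, 3 other fatty acid genes and 725 of all genes higher and 1317 lower.

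Reversed signs were seen for Lss (0.02 after quantile normalization), for Cyp51 (0.21), Msmo1 (0.14), Sc5d (0.06), Acaca (0.14) and Elovl6 (-0.37) with the mean of probe sets, for Fasn without Trib1 hi 3 (0.03; -0.05 to 0.03 over single arrays left out) or both high-background arrays (0.02), and for Elovl6 without Trib1 hi 3 (-0.03; -0.03 to 0.05 over single arrays left out), Trib1 null 3 (-0.02) or both high-background arrays (-0.03). The cause was not tested. The arrays share replicate numbers, but deviations of same-numbered arrays correlated at -0.507, 0.487, -0.294 and 0.367 for numbers 1 to 4. The highest correlation, 0.653, was between Trib1 hi 3 and Trib1 null 1, both high-background arrays. Correlations over all tested genes cannot decide whether same-numbered arrays were handled together, and the main fit did not pair them. With a replicate block, 11 sterol enzymes, 4 control genes and 0 fatty acid genes were lower, with 1284 of all genes higher and 2346 lower. Below about 500 the arrays' background limits what can be compared.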

Other observations

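A few genes of fatty acid breakdown and storage from the wider list, picked after their values were seen, are given as values. Cpt1a, which loads fatty acids onto carnitine for entry into mitochondria, read 3556, 3124, 2337 and 2307 in the arrays labelled Trib1 hi, against 4623, 5025, 4904 and 5202 in those labelled Trib1 null, 1.77-fold lower (limma adjusted p = 3.38e-07). Cpt2, its partner on the inner membrane, was at least 2.44-fold lower (585 ± 186 for Trib1 hi against 1488 ± 61.2 for Trib1 null, limma adjusted p = 3.31e-08). The acyl-CoA dehydrogenases differed among themselves: Acadvl fell 1.47-fold (1451 ± 96.6 for Trib1 hi against 2132 ± 227 for Trib1 null) and Acadm 1.29-fold (3604 ± 440 for Trib1 hi against 4643 ± 211 for Trib1 null), while Acadl averaged 7450 ± 1044 and 7425 ± 427 in the arrays labelled Trib1 hi and Trib1 null and was not called. Hadhb and Pnpla2, of breakdown and of droplet lipolysis, were not called (limma adjusted p = 0.0595 and 0.698). Plin2, the coat protein of lipid droplets, fell 1.39-fold (8071 ± 1200 for Trib1 hi against 11132 ± 721 for Trib1 null). Genes of the elongation cycle went both ways: Hsd17b12 and Hacd1 rose 1.66-fold and 1.39-fold, whereas Elovl7 and Hacd2 fell 1.71-fold and 1.3-fold. Over 17 alternatives the highest adjusted p was 0.96 for Hacd2, 0.0592 for Hacd1, 0.0849 for Acadm and 0.0639 for Plin2, so each of these calls was lost in at least 1.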
